A study of Mus musculus with 6 samples.

Results

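The genes described here are the 10 that carry peptide presentation by MHC class I in the mouse: the heavy chains H2-K1 and H2-D1, the light chain B2m, the peptide-loading genes Tap1, Tap2 and Tapbp, the immunoproteasome subunits Psmb8, Psmb9 and Psmb10, and the activator Nlrc5. They were chosen by symbol for their function, with earlier results of these data known. All 10 were found among the 55291 gene symbols of the deposited tables. RNA was sequenced from RAW264.7, a tumour-derived macrophage line of the mouse, after 4 days with RANKL at 50 ng/mL, the cytokine that turns the cells into osteoclasts. The control group, shCtrl (n = 3, genotype labelled WT), and the shUSP8 group (n = 3, labelled as a USP8 knock down) had the same RANKL treatment, and each group's name is that of its short hairpin RNA. The labels do not say how many hairpins were used, or that replicates are separate cultures. The p-values therefore reflect variation among the 6 libraries alone, and that variation may be technical.

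Class I molecules show peptides cut from the cell's own proteins to CD8 T cells and NK cells. The proteasome cuts the peptides, the TAP transporter carries them into the endoplasmic reticulum, and tapasin holds TAP beside the empty heavy chain until a peptide fits. In cells under interferon, the immunosubunits replace the catalytic subunits of the standard proteasome, and the NOD-like protein NLRC5 joins the factors bound to the class I promoters and switches these genes on together. Osteoclasts arise from macrophage precursors, which present antigen.

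The promoters of H2-K1 and B2m are shown first, because they carry the same spaced pair of motifs and code for the chains that pair with each other. The sequences are from RefSeq (GRCm38.p6), whose table covers 300 bases around each start site and held 8 of the 10 genes, Tap2 and Nlrc5 being the others. They are those of the reference genome, and the cells come from BALB/c mice, whose bases can differ here. Each stretch is written 5′ to 3′ on the gene's strand and lies before the start site of both RefSeq and GENCODE M21. Capitals mark a kappaB motif, bound by NF-kappaB, an interferon-stimulated response element (ISRE; GAAA, any 2 bases and GAAA, or the shorter GAANNGAAA, on either strand), and then TGACG and ATTGG, the cores of the X2 and Y boxes to which NLRC5's partner proteins bind. H2-K1 is read at chr17:34000349-34000468 (minus strand), B2m at chr2:122147538-122147648 (plus) and H2-M3, a class I gene outside the 10 that holds the same pair, at chr17:37270098-37270219 (plus).
H2-K1: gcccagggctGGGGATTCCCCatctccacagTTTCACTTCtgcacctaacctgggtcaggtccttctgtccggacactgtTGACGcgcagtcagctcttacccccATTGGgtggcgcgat
B2m: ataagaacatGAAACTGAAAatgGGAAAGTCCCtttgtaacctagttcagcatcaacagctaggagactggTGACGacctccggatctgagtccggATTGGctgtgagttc
H2-M3: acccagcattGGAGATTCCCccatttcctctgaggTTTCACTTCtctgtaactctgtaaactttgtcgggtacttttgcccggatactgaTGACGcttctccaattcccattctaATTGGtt

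In each of these 3 stretches, and in the RefSeq window of H2-D1, TGACG and ATTGG stood on the gene's strand with exactly 20 bases between them. The H2-D1 stretch is not printed, because GENCODE M21 starts that gene farther upstream and so places the stretch inside the annotated gene. The other motifs were arranged differently. In H2-K1, H2-D1 and H2-M3 the kappaB motif came first and a shorter ISRE on the opposite strand followed, whereas in B2m a full ISRE on the gene's strand came first and the kappaB motif followed. The spacing of TGACG and ATTGG was read from these promoters, so its presence in them is a description. Of the 32851 promoter windows in the table, 31 (0.0944%) held the spaced pair on either strand. The H2-K1 and H2-D1 stretches were identical at 108 of 120 bases. The kappaB motif was found in 8.46% of all windows, the ISRE in 3.44% and its shorter form in 7.52%, and TGACG and ATTGG taken singly in 20.8% and 37.4%. The 2 ISRE forms differ by 1 A, and matches to them can overlap. The 31 windows belonged to 27 genes. Of the 20 genes among them that were tested, 7 rose and 2 fell. Without the 4 class I genes from which the pair was read or which are described here, 3 of 16 rose (18.8%), close to the 17.8% of all genes tested. Besides the 4 class I genes, the risers were Tecpr1, Hnrnpf and Per1, and the genes that fell were Glyr1 and Kcnq1ot1, all named after their values were seen.

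The other windows were less alike. Tap1 and Psmb9 are transcribed away from each other from a shared promoter, and their windows overlapped over 275 bases. TGACG lay in that shared stretch, 86 bases before the Tap1 start. Psmb8 held the only GAS motif among the 8 (TTCNNNGAA, an interferon-gamma-activated site, found in 8.3% of all windows). No motif searched was found in the Psmb10 window, which says only that these letters are not in these 300 bases.

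**Figure D1:**
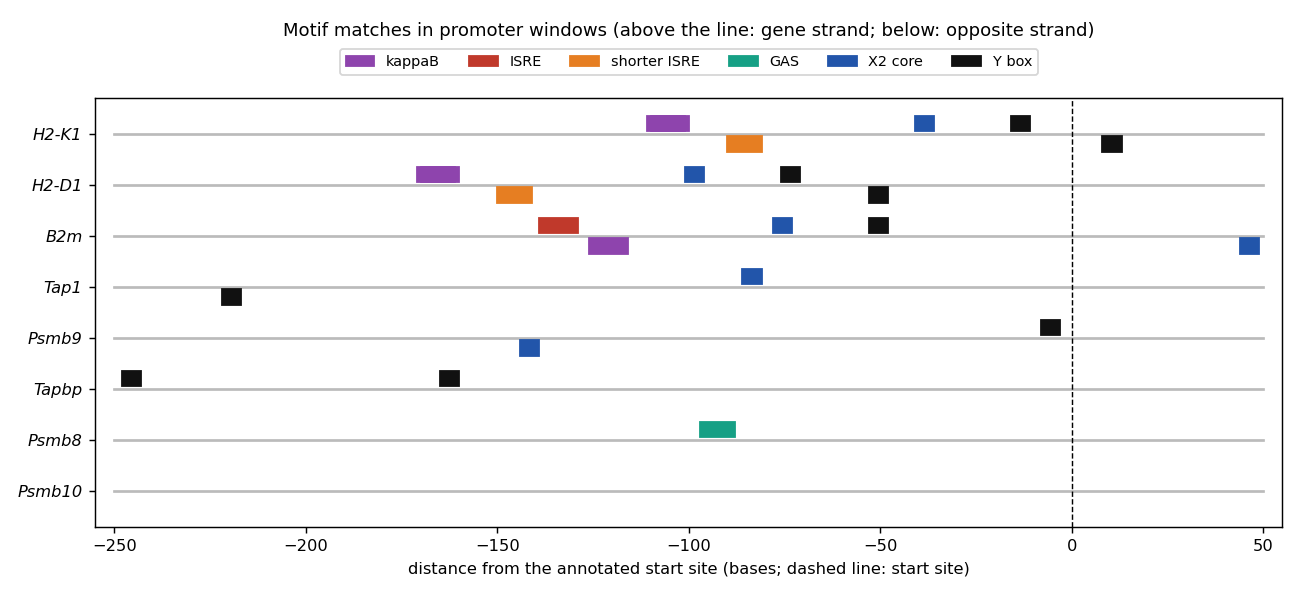
Motif matches in the 300-base promoter windows of the 8 genes with an entry, by distance in bases from the RefSeq start site (dashed line); boxes above the grey line are matches on the gene's strand and boxes below it matches on the opposite strand. H2-K1, H2-D1 and B2m each show an X2 core followed by a Y box at the same spacing, with a kappaB and an ISRE match farther from the start site, in another order in B2m.

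The libraries were of nearly equal depth, with 19973522 to 20213939 expected counts each. Usp8 itself, the targeted gene, had 2785, 2561 and 2645 expected counts in shCtrl and 656, 720 and 718 in shUSP8, which is 135.7 ± 5.86 against 33.9 ± 1.68 CPM, counts scaled to library size (edgeR adjusted p = 1.47e-10). The cells carried macrophage and osteoclast markers in every library, and both sets differed between the groups. Over 9 macrophage markers the summed level was 4997 to 5182 CPM in shCtrl and 6130 to 6660 in shUSP8. Of these 9, 5 were called higher and 3 lower (0 to 3 lower over the alternatives), beside 17.8% and 14.9% of all genes tested. Lyz2, the lysozyme gene, carried the rise of the summed level, from 852.6 to 2699 CPM. Without it the other 8 summed to 4164 to 4332 CPM in shCtrl and 3603 to 3798 in shUSP8, and the abundant Cd68, Csf1r and Spi1 fell. The less abundant Adgre1 (1.91-fold), Itgam (1.56-fold), Mertk (2.52-fold) and Fcgr1 (7.77-fold) were called higher. Over 9 osteoclast markers the summed level was 12968 to 13271 CPM in shCtrl and 10596 to 10933 in shUSP8. Of these 9, 5 were called lower in edgeR (14.9% of all genes tested), 3 on log2(TPM + 1) (4.06%) and 1 on that scale without a filter (1.73%). The part of this in the results below was not tested, and in bulk RNA a change in the share of cells in a state cannot be told apart from a change of RNA in each cell. Of the markers of other antigen-presenting or immune cells, 4 of 5 B cell genes and 7 of 9 T or NK cell genes were at 0 in all 6 libraries. The 9 dendritic cell markers summed to 7.90 to 10.7 CPM in shCtrl and 7.91 to 9.70 in shUSP8, with Flt3 and Batf3 at no more than 1 count in any library.

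All 10 class I pathway transcripts were higher in the shUSP8 libraries, by 1.14-fold (Tap2) to 2.56-fold (Nlrc5). Each passed the test (edgeR, adjusted p under 0.05), and none was lower. Across the 12440 genes tested, 17.8% rose and 14.9% fell by the same rule. The median log2 fold change was 0.61 over the 10 genes and -0.0049 over all genes tested. In all 10 the lowest shUSP8 library lay above the highest shCtrl library in CPM, as it did for 24.6% of the genes tested. Only Nlrc5, Psmb9 and Psmb8 changed at least 2-fold, which 4.48% of tested genes did while passing the test. The rise was shared by the 10 genes, moderate for most of them, and uneven in size.

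**Figure D2:**
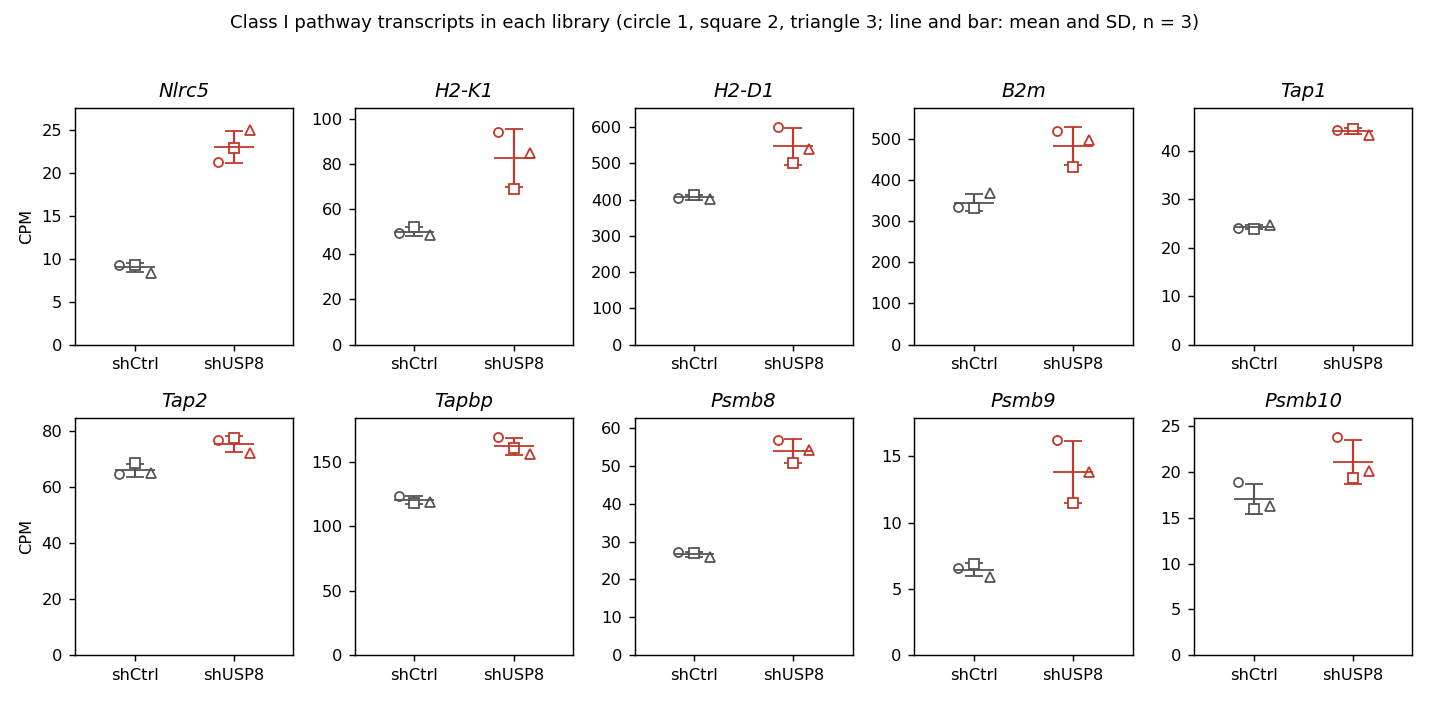
Level in CPM of each of the 10 genes in every library; open symbols are the libraries (circle 1, square 2, triangle 3), and the line and bar are the mean and SD of each group (n = 3). All 3 shUSP8 libraries lie above all 3 shCtrl libraries in each panel, with the narrowest gap for Tap2 and Psmb10.

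The activator had the largest rise of the 10. Nlrc5, on chromosome 8 at 94434356 to 94527272 (plus strand, GRCm38), had 183, 184 and 162 expected counts in shCtrl and 434, 474 and 510 in shUSP8. The shUSP8 libraries were all more than 2-fold above the controls, and the spread inside each group was small beside the gap. Its level went from 8.98 ± 0.526 to 22.99 ± 1.87 CPM (mean ± SD over 3 libraries in each group, here and below), or 1.36 on the log2 scale (SE 0.09; edgeR adjusted p = 2.26e-07). Larger log2 fold changes were found in 3.21% of the genes tested. In TPM, which divides by transcript length, Nlrc5 stood at 3.51, 2.96 and 3.05 in shCtrl and 5.23, 10.10 and 11.03 in shUSP8. The low TPM of shUSP8_1 did not come with a low count. The gene's effective length there, relative to the median expressed gene, was 2.21, against 1.25 to 1.62 in the other 5 libraries (TPM divides by this length).

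By distance between profiles over the 6 libraries (log2 CPM, each gene centred on its own mean), the genes nearest to Nlrc5 among 8925 expressed ones were Sgk1 (distance 0.13), Helz2 (0.14), Sash1 (0.14), Slfn5 (0.21) and Osgin1 (0.22). Helz2 is a nuclear coactivator with helicase domains, and Slfn5 belongs to the Schlafen family. Sgk1 encodes a serum- and glucocorticoid-regulated kinase. With 2 groups the distance is set mainly by the size of the difference between them, and these 5 genes had log2 fold changes of 1.30 to 1.44.

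H2-K1 and H2-D1, the classical heavy chains that bind the peptide, rose to different extents. H2-K1 (chromosome 17 at 33996017 to 34000347, minus strand) had 978, 1033 and 938 expected counts in shCtrl and 1935, 1429 and 1743 in shUSP8. The control libraries were close together, and shUSP8_2 was the lowest of the shUSP8 libraries while still well above them. The level went from 50.1 ± 1.93 to 82.8 ± 12.9 CPM, or 0.73 on the log2 scale (SE 0.11, edgeR, adjusted p = 0.0015). H2-D1 (chromosome 17 at 35262730 to 35267499, plus strand) was far more abundant, with 7987, 8159 and 7759 counts in shCtrl and 12297, 10353 and 11063 in shUSP8. It rose from 405.8 ± 5.83 to 546.7 ± 50.5 CPM, or 0.43 on the log2 scale (SE 0.06, adjusted p = 0.000308). The same library, shUSP8_2, was the lowest of its group here too.

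B2m, the light chain without which heavy chains do not reach the surface, lies on chromosome 2 at 122147686 to 122153083 (plus strand). It had 6588, 6556 and 7142 expected counts in shCtrl and 10618, 8935 and 10155 in shUSP8. Its level went from 344.6 ± 21.2 to 481.8 ± 45.1 CPM, or 0.48 on the log2 scale (SE 0.07, edgeR, adjusted p = 0.00034). The TPM ratio of H2-K1 plus H2-D1 to B2m was 0.629 ± 0.0499 in shCtrl and 0.645 ± 0.0527 in shUSP8, and the groups overlapped (two-sided exact permutation p = 0.6, adjusted 0.6). The TPM ratio of H2-K1 to H2-D1 was 0.663, 0.654 and 0.614 in shCtrl and 0.812, 0.714 and 0.859 in shUSP8, without overlap. Its two-sided exact permutation p was 0.1, the smallest that this test can give with 3 libraries a group.

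The heavy-chain counts are uncertain because class I genes resemble each other. Of the 50-base words in their annotated transcripts, 9.63% of those of H2-K1 and 12.8% of those of H2-D1 also occur in transcripts of other genes, among them H2-Q1, H2-Q7 and H2-Q10. RAW264.7 cells come from BALB/c mice, whose class I alleles differ from those of the C57BL/6 reference genome, so reads of 1 set of alleles were assigned to another. How far this moves the levels was not tested. The effective length of H2-K1, relative to the median expressed gene, was 0.145 to 0.155 in the 6 libraries, against 0.785 to 0.793 for H2-D1. Both encode full heavy chains, so the TPM of H2-K1, and its ratio to H2-D1, rest on counts placed mostly on short annotated transcripts, whereas in CPM H2-K1 stood far below H2-D1 in every library. B2m and Psmb10 shared no 50-base word with any other gene.

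Tap1 and Tap2, the subunits of the peptide transporter, moved unequally. Tap1 (chromosome 17 at 34187553 to 34197225, plus strand) had 477, 474 and 477 expected counts in shCtrl and 909, 923 and 889 in shUSP8. Libraries within a group were nearly equal, and the groups stood far apart. It rose from 24.3 ± 0.376 to 44.1 ± 0.617 CPM, or 0.86 on the log2 scale (SE 0.06, edgeR, adjusted p = 2.99e-07). Tap2 (chromosome 17 at 34203527 to 34216321, plus strand) had 1276, 1362 and 1259 counts in shCtrl and 1573, 1609 and 1482 in shUSP8. It had the smallest change of the 10, from 66.2 ± 2.32 to 75.6 ± 2.83 CPM, or 0.19 on the log2 scale (SE 0.05, adjusted p = 0.0156). Its call was lost on all 3 TPM settings (adjusted p = 0.0784 on log2(TPM + 1)), with effective-length offsets (log2 fold change 0.09, adjusted p = 0.359), without shCtrl_1 (adjusted p = 0.0714) and without shCtrl_3 (0.0587). The TPM ratio of Tap1 to Tap2 was 0.321, 0.315 and 0.348 in shCtrl and 0.602, 0.577 and 0.588 in shUSP8 (exact permutation p = 0.1). Per length, Tap2 stood above Tap1 in every library, by a smaller margin in each shUSP8 library than in any control.

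Tapbp, the gene of tapasin (chromosome 17 at 33915899 to 33929292, plus strand), had 2444, 2330 and 2302 expected counts in shCtrl and 3476, 3341 and 3185 in shUSP8. It rose from 120.1 ± 3.18 to 162.1 ± 7.10 CPM, or 0.43 on the log2 scale (SE 0.05, edgeR, adjusted p = 4.54e-05). Its annotated transcripts share 20.3% of their 50-base words with the predicted gene Gm19412, which had at most 5 counts in any library.

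The immunosubunits rose 2.02-fold (Psmb8), 2.15-fold (Psmb9) and 1.24-fold (Psmb10). Psmb8 (chromosome 17 at 34197721 to 34201454, plus strand), which replaces Psmb5, had 538, 533 and 502 expected counts in shCtrl and 1164, 1051 and 1111 in shUSP8. Each shUSP8 library held about double the control count. Its level went from 26.7 ± 0.680 to 53.9 ± 3.05 CPM, or 1.01 on the log2 scale (SE 0.06, edgeR, adjusted p = 1.5e-07). Psmb9 (chromosome 17 at 34181987 to 34187764, minus strand), which replaces Psmb6, was the rarest subunit, with 130, 135 and 114 counts in shCtrl and 333, 237 and 283 in shUSP8. It rose from 6.43 ± 0.500 to 13.9 ± 2.40 CPM, or 1.10 on the log2 scale (SE 0.13, adjusted p = 5.02e-05). The shUSP8 libraries differed among themselves by more than the controls did. Psmb9 and Tap1 are annotated on opposite strands with 212 bases in common (chromosome 17 at 34187553 to 34187764), and reads from that overlap cannot be told apart unless strand was kept. Psmb9 shared 4.19% of its 50-base words with Tap1.

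Psmb10 (chromosome 8 at 105935735 to 105938444, minus strand), which replaces Psmb7, had 373, 316 and 315 expected counts in shCtrl and 488, 402 and 411 in shUSP8. The groups came close, and shCtrl_1 and shUSP8_1 were the highest of each. The level went from 17.04 ± 1.603 to 21.1 ± 2.38 CPM, or 0.31 on the log2 scale (SE 0.10, edgeR, adjusted p = 0.0283). Its call was lost without shCtrl_2 (adjusted p = 0.116), shCtrl_3 (0.113), shUSP8_1 (0.081) or shUSP8_3 (0.0506), in DESeq2 (0.0548), with effective-length offsets (0.0909) and on log2(TPM + 1) without a filter (0.07).

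Set against the standard subunits they displace, the immunosubunits were a minority in both groups and a larger one in shUSP8. Psmb8 made up 15.2%, 15.2% and 14.6% of Psmb8 plus Psmb5 (TPM) in shCtrl and 23.2%, 24.9% and 24.9% in shUSP8. Psmb9 made up 1.598%, 1.56% and 1.27% of Psmb9 plus Psmb6 in shCtrl and 4.23%, 3.07% and 3.75% in shUSP8. On counts not divided by length, the Psmb9 share rose by 4.25 percentage points instead of 2.21. Psmb10 made up 8.62%, 7.41% and 7.81% of Psmb10 plus Psmb7 in shCtrl and 10.3%, 9.96% and 9.02% in shUSP8. No share overlapped between the groups. The two-sided exact permutation p was 0.1 for each share, the smallest possible, and 0.12 after adjustment over the 6 ratios and shares computed.

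**Figure D3:**
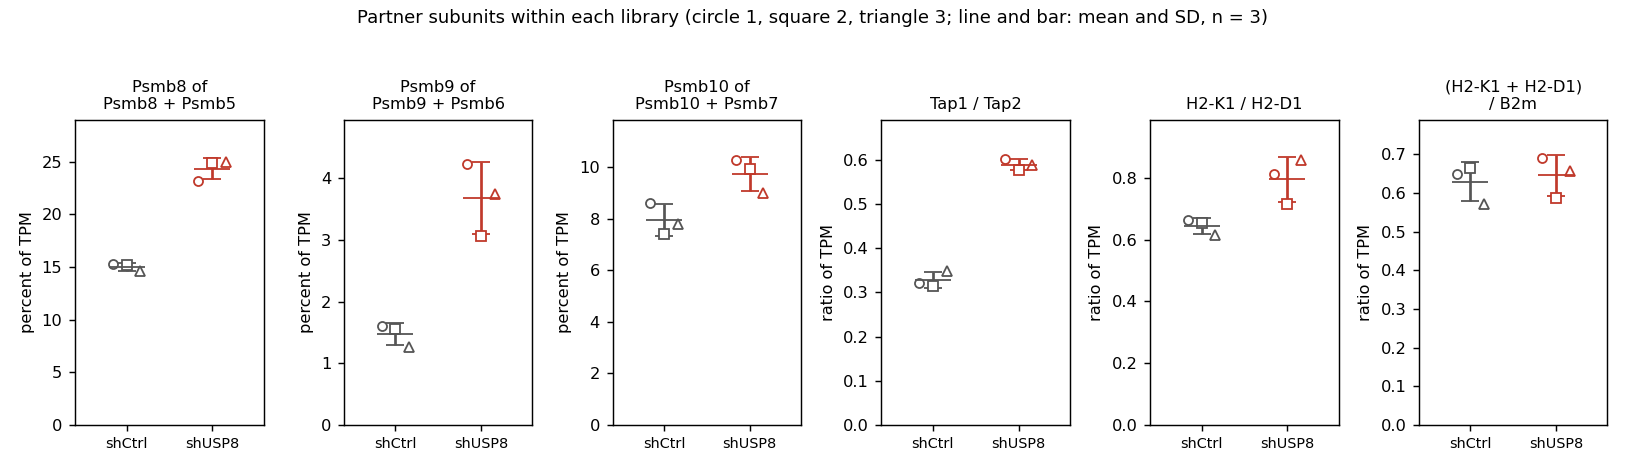
Shares (percent of TPM) and ratios (TPM over TPM) of partner subunits in every library; open symbols are the libraries (circle 1, square 2, triangle 3), and the line and bar are the mean and SD of each group (n = 3). The 3 immunosubunit shares and the Tap1 to Tap2 and H2-K1 to H2-D1 ratios do not overlap between groups, while the heavy-chain to B2m ratio does.

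None of the standard partners passed as higher. Psmb5 was at 127.8 ± 2.83 CPM in shCtrl and 144.2 ± 17.7 in shUSP8 (log2 fold change 0.17, edgeR adjusted p = 0.12). Psmb7 was at -0.01 on the log2 scale (adjusted p = 0.917). Psmb6 fell from 197.1 ± 10.96 to 171.8 ± 13.8 CPM (log2 fold change -0.20, adjusted p = 0.0349). The Psmb6 call was lost without shCtrl_2, shCtrl_3, shUSP8_2 or shUSP8_3, and its value was -0.03 on log2(TPM + 1). On that last scale the all-gene median was itself 0.12, and Psmb5 passed (0.33, adjusted p = 0.0141), as it did with library totals, without the count filter and without shUSP8_2. Of the 11 other core subunits, 3 rose (Psma7 by 0.25, Psma1 by 0.17 and Psma4 by 0.18) and none fell, with a median of 0.11. Of all genes tested, 17.8% rose and 14.9% fell. On log2(TPM + 1) 8 of the 11 rose (19.1% of all genes), and with library totals 6 did (25.0% of all genes).

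In transcripts per length, B2m was the most abundant of the 10 and Nlrc5 the rarest. The order in shCtrl was B2m (689.5 TPM), H2-D1 (263.6), H2-K1 (169.8), Tapbp (61.1), Psmb8 (42.6), Tap2 (31.3), Psmb10 (21.8), Tap1 (10.2), Psmb9 (6.69) and Nlrc5 (3.17). The place of H2-K1 rests on the short effective length given above. Neighbours in this order did not overlap in range in either group. The order in shUSP8 differed at 1 place: Psmb8 (91.5 to 103.7 TPM) stood above Tapbp (84.3 to 89.5). Nlrc5, Psmb9 and Tap1, the 3 rarest in TPM, were with Psmb8 the 4 genes with the largest log2 fold changes. In CPM, the scale of that test, Psmb10 (17.04 in shCtrl) was rarer than Tap1 (24.3), and its log2 fold change was 0.31.

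The shUSP8 libraries ranked the genes alike in part. In CPM, shUSP8_1 was the highest of its group for 7 of the 10 genes and shUSP8_2 the lowest for 6, namely H2-K1, H2-D1, B2m and the 3 immunosubunits. Nlrc5 ran the other way, lowest in shUSP8_1. The relative effective length of B2m was 0.234 in shUSP8_2 against 0.254 to 0.258 in the other libraries. With effective-length offsets B2m was at 0.51 and H2-K1 at 0.74. Without shUSP8_1 the median over the 10 genes was 0.53, and without shUSP8_2 it was 0.70.

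Other settings kept all 10 log2 fold changes above 0. The shares of all tested genes called higher, against which their counts of members are to be read, were 25.0% with library totals in place of TMM factors, 13.6% in DESeq2, 12.2% with effective-length offsets and 16.2% with the replicate block. They were 19.1% on log2(TPM + 1), 19.0% on log2(TPM + 0.1) and 7.79% on log2(TPM + 1) without a filter. Between 7 and 10 of the 10 genes were called higher in each of these.

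**Figure D4:**
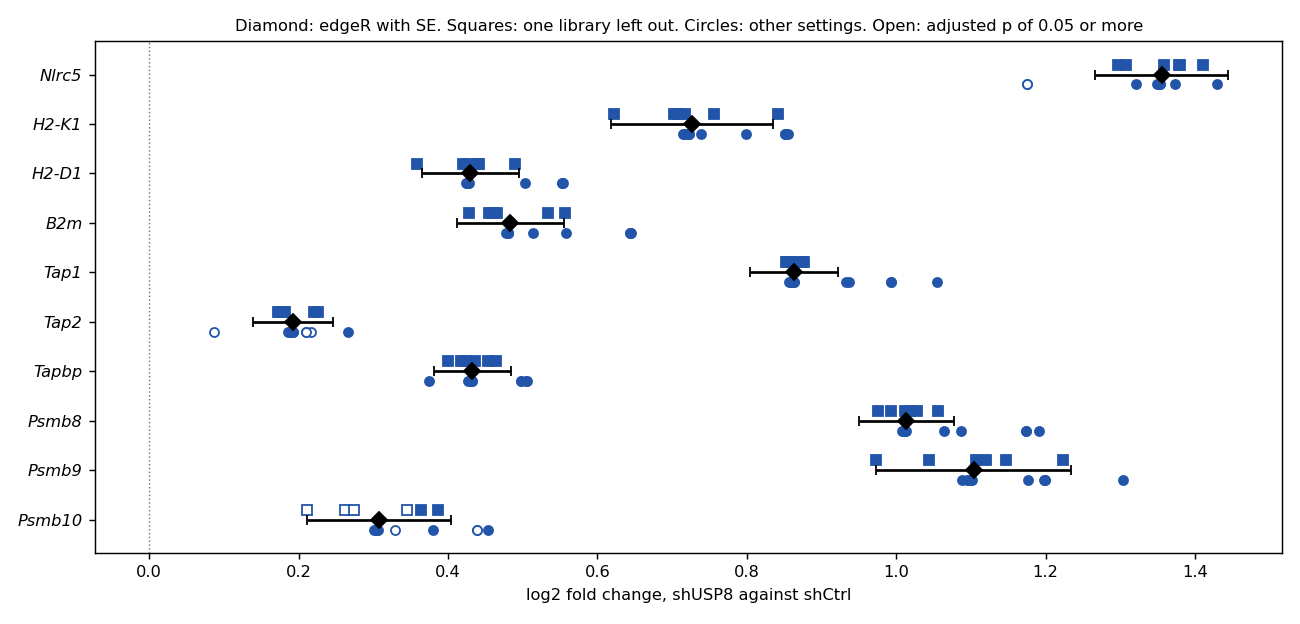
Log2 fold change of each gene (x axis) under the edgeR test (diamond, bar SE), with each library left out (squares) and under the other settings (circles); open symbols have an adjusted p of 0.05 or more. All values lie above 0, and open symbols occur for Tap2, Psmb10 and, in 1 setting, Nlrc5.

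The other genes of the class I family were examined next. Of 24 other heavy-chain and class I-like genes listed, 16 passed the count filter, 13 rose and none fell, beside 17.8% and 14.9% of all genes tested. In DESeq2 and on log2(TPM + 1), 10 rose, beside 13.6% and 19.1% of all genes. Some of the 16 are rare enough to have passed the filter mainly through the shUSP8 libraries, such as H2-M2 (4, 4 and 4 counts in shCtrl, 17, 12 and 13 in shUSP8), so the count describes the genes that could be tested and supports no statement on the family. H2-T24 rose from 5.52 ± 0.279 to 30.6 ± 3.65 CPM, or 2.47 on the log2 scale (SE 0.10, edgeR, adjusted p = 3.97e-09). H2-Q6 (2.68-fold, edgeR adjusted p = 3.62e-08) and H2-Q4 (2.43-fold, adjusted p = 1.29e-07), of the Q region, rose as well. H2-Q6 shares 50-base words with H2-D1 and H2-Q4 with H2-K1, so their counts are uncertain in the same way. Hfe, a class I-like regulator of iron uptake, rose by 1.24 (SE 0.14). Procr, the protein C receptor, which has the class I fold but presents no peptide, rose by 4.12 (SE 0.13).

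Further members, named after their values were seen, covered the ligands of innate-like receptors. H2-T23, whose product displays signal peptides to NK cells, had 1319, 1402 and 1379 counts in shCtrl and 2081, 1772 and 1942 in shUSP8 (log2 fold change 0.43, edgeR adjusted p = 0.000298). H2-M3, which presents formylated peptides and whose promoter is printed above, rose by 0.49 (adjusted p = 0.00835), and Mr1, which presents vitamin B metabolites, by 1.14 (adjusted p = 9.83e-05). H2-Q10 and H2-T10 passed with few counts, and each call was lost in 8 of 16 alternatives. Fcgrt, the neonatal Fc receptor, which has the class I fold and binds B2m, was at -0.17 (adjusted p = 0.0969). H2-Q1 (adjusted p = 0.853) and H2-K2 (0.196) did not pass either.

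**Figure D5:**
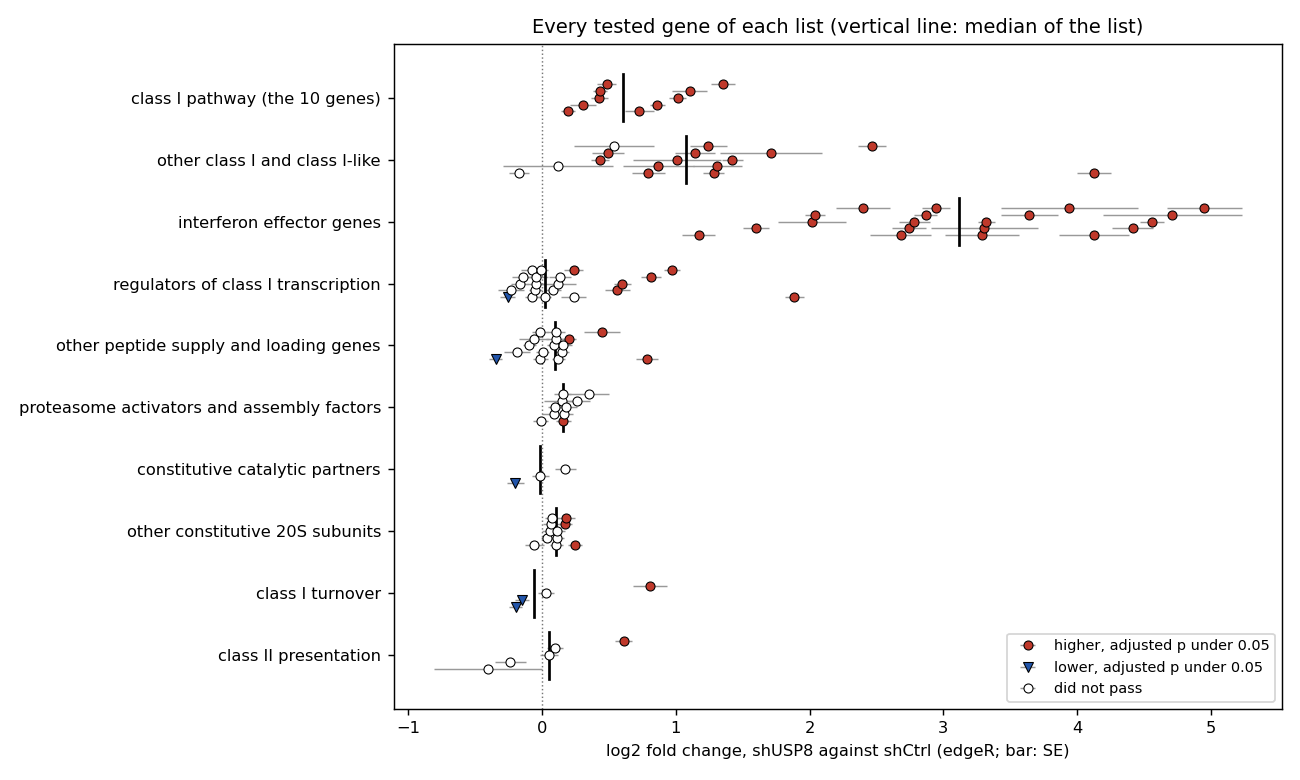
Log2 fold change of every tested gene in each list, with SE as the bar; filled circles passed as higher, triangles as lower and open circles did not pass, and the vertical line is the median of the list. The 10 class I pathway genes and the other class I genes lie to the right of 0 apart from Fcgrt, with the interferon effector genes farther right, some of them tested only because of their shUSP8 counts. The medians of the proteasome, loading and class II lists lie near 0, and single genes of the loading and class II lists lie farther out on either side.

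Of 16 other genes of peptide trimming, folding and loading, 3 rose and 1 fell (median 0.09), with 17.8% of all genes tested called higher and 14.9% lower. However, 7 rose with library totals (25.0% of all genes) and 5 on log2(TPM + 1) (19.1% of all genes). Erap1, the aminopeptidase that trims peptides in the endoplasmic reticulum, had 419, 376 and 418 counts in shCtrl and 667, 737 and 786 in shUSP8, without overlap. Its log2 fold change was 0.79 (SE 0.08, edgeR adjusted p = 1.22e-05). Tapbpl, a tapasin relative that edits peptides, rose by 0.45 (adjusted p = 0.0216; lost without shCtrl_1 or shCtrl_3). Uggt1, which returns misfolded glycoproteins to the folding cycle, rose by 0.20 (adjusted p = 0.016; lost without shCtrl_2 or shCtrl_3). Npepps, a cytosolic aminopeptidase, fell by 0.35 on the log2 scale (adjusted p = 0.000157) and did not pass on log2(TPM + 1). The general chaperones Calr (-0.01, adjusted p = 0.875) and Canx (0.09, adjusted p = 0.197) did not pass.

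Of 10 proteasome activators and assembly factors, 1 rose and none fell, beside 17.8% and 14.9% of all genes tested. The riser was Psme4, by 0.16 (edgeR adjusted p = 0.0456), and its call was lost in 11 of 16 alternatives. With library totals 6 of the 10 rose (25.0% of all genes tested), and on log2(TPM + 1) 7 did (19.1% of all genes tested). Psme1 and Psme2 form the activator that interferon induces alongside the immunosubunits. Psme1 was at 0.15 (adjusted p = 0.0731). Psme2 had 1559, 1500 and 1519 counts in shCtrl and 2485, 1667 and 1958 in shUSP8 (log2 fold change 0.35, adjusted p = 0.142). Psme2 passed in DESeq2 (adjusted p = 0.00826), on log2(TPM + 1) (0.0271), without shUSP8_1 (0.045) and without shUSP8_2 (0.00384), and Psme1 passed with library totals (0.0138), on log2(TPM + 1) (0.0154) and without shUSP8_2 (0.0214). The Psme2 counts did not overlap between groups, yet those of shUSP8 spread widely.

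Among 21 tested regulators of class I transcription, 6 rose and 1 fell (median 0.02), where 17.8% and 14.9% of all genes tested did. Those described here belong to the interferon pathway. Irf9, a subunit of the interferon-activated complex ISGF3, rose from 10.5 ± 0.447 to 39.0 ± 1.78 CPM, or 1.89 on the log2 scale (SE 0.07, edgeR, adjusted p = 1.39e-09). Its partner Stat2 (0.60, SE 0.07) rose, as did Irf8 (0.97, SE 0.06), a myeloid factor. Irf1, which acts directly on class I and immunosubunit promoters, had 185, 194 and 198 counts in shCtrl and 328, 284 and 281 in shUSP8 (log2 fold change 0.56, SE 0.09). Irf2 was at 0.24 (adjusted p = 0.0271), and its call was lost in 8 of 16 alternatives.

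None of the genes for the proteins that occupy the X and Y boxes passed as higher in edgeR with TMM factors. The RFX subunits Rfx5 (0.24, edgeR adjusted p = 0.0715), Rfxap (0.14, adjusted p = 0.241) and Rfxank (0.12, adjusted p = 0.513) did not pass. Rfx5 did pass with library totals (adjusted p = 0.0231), without the count filter (0.0459), without shCtrl_2 (0.0251) and without shUSP8_2 (0.0476). The NF-Y subunits Nfya (-0.07), Nfyb (-0.23) and Nfyc (0.08) did not pass, with adjusted p-values of 0.351, 0.0941 and 0.377. Atf1, a binder of the X2 box, fell by 0.25 on the log2 scale (adjusted p = 0.00423), a call lost with effective-length offsets and on log2(TPM + 1). The NF-kappaB genes Rela, Relb, Nfkb1 and Nfkb2 lay between -0.05 and 0.02 and did not pass.

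Class II presentation, which loads peptides from endosomes, was examined for comparison. Ciita, the class II counterpart of Nlrc5, had 4, 3 and 3 counts in shCtrl and 1, 2 and 9 in shUSP8 and was too rare to test. H2-Aa had at most 4 counts and H2-Ab1 at most 4 in any library. Cd74, the invariant chain, was abundant at 166.7 ± 10.2 CPM in shCtrl and 172.9 ± 15.5 in shUSP8 (log2 fold change 0.05, edgeR adjusted p = 0.604). Of the 5 class II genes tested, only Ctss rose (log2 fold change 0.61, SE 0.06, adjusted p = 1.18e-05); it encodes cathepsin S, a lysosomal protease that trims the invariant chain and acts elsewhere too. Of all genes tested, 17.8% rose in edgeR. On log2(TPM + 1) 3 of the 5 class II genes rose, where 19.1% of all genes did.

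Of 4 tested genes that lower surface class I, 1 rose and 2 fell, beside 17.8% and 14.9% of all genes tested. Marchf9, a membrane ubiquitin ligase, had 64, 70 and 77 counts in shCtrl and 134, 134 and 120 in shUSP8 (log2 fold change 0.81, SE 0.13, edgeR adjusted p = 0.000429). Tmem127 (-0.19, adjusted p = 0.00906) and Susd6 (-0.15, adjusted p = 0.0371) fell, though both calls were lost with library totals. Tmem127 was at 0.04 on log2(TPM + 1) and did not pass without shCtrl_2 (adjusted p = 0.0624), and Susd6 passed in only 1 of the 6 fits that left out a library, the one without shUSP8_2.

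Interferon effector genes were examined beside the 10. Of 26 listed, 20 passed the filter and those 20 rose, where 17.8% of all genes tested did. Over the alternatives 17 to 23 rose. However, some passed the filter only through shUSP8 and so had to differ, which leaves the count a description. Those with the smallest p were abundant enough to be measured in both groups. Oas3 went from 15.4 ± 0.263 to 153.6 ± 8.62 CPM, Irf7 from 3.57 ± 0.283 to 84.3 ± 6.68 CPM and Ddx58 from 5.62 ± 0.137 to 41.1 ± 3.16 CPM. The 21 interferon genes themselves gave 0 to 2 counts in all per library. Ifng had no count in shCtrl and 1, 1 and 0 in shUSP8, and Ifnb1 had none in any library, where a count of 0 allows up to 0.145 to 0.155 CPM (counting error only).

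Position was examined because 7 of the 10 genes lie in the H2 complex on chromosome 17. The interval runs from the start of Tapbp to the end of H2-M2 (33915899 to 37483552, GRCm38). In it, 17 of the 21 tested genes on the class I, class II and related lists rose and none fell. Some of these, such as H2-M2, passed the count filter mainly through the shUSP8 libraries, so their count is a description. Of the 87 other tested genes in the same interval, 17 rose (19.5%) and 6 fell (6.9%), with a median log2 fold change of 0.02. That share of rises is close to the 17.8% of all genes tested, and the share of falls is below their 14.9%. Nlrc5 and Psmb10 on chromosome 8 and B2m on chromosome 2 rose from outside the complex. Whether position played a part was not tested.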

How the data were processed

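Expected counts per gene (RSEM estimates, 7.16% of them not whole) and TPM were deposited by the authors for 6 libraries. RSEM, DESeq2 1.28.1 and mm10 are named in the submitters' processing notes without their roles; aligner and annotation release are not given in the sources used here. Columns headed WT were matched to shCtrl and those headed KO to shUSP8 by genotype, and within a group by number.

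After rounding, the counts went into edgeR 4.0.16 under R 4.3.3: TMM factors, filterByExpr (minimum count 10, minimum total 15), robust quasi-likelihood F test, Benjamini-Hochberg adjustment over all genes. SE is the absolute log2 fold change over the square root of F, and can be too small for rare genes. Alternatives used limma 3.58.1, DESeq2 1.42.0 and effective-length offsets (expected count over TPM). Ratios were tested by exact permutation (scipy 1.17.1). The pipeline was tested on simulated data. Coordinates are GENCODE M21, which shares its assembly with mm10.

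The genes, lists and tests were chosen with earlier results of these data known; the motifs, the TPM ratios of Tap1, heavy chains and B2m, and the chromosome 17 interval were added after values were seen. Up to 5 called genes by smallest p were named for each of 5 lists in each direction and up to 3 for the others (where a list had no called gene, its 2 most abundant in CPM), with the 5 nearest to Nlrc5. The symbols H2-L, Nrdc and Hm13 of the lists were not analysed here. A gene of the regulator list that the naming rule picked is not reported here. The chi-square per gene between libraries of a group was 2.29 to 18.5.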

Additional observations from a re-analysis of the deposited data

How the results depend on the processing

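Over 16 alternatives the 10 genes gave 160 values, all above 0; 146 kept the call and 14 lost it, the losses being those of Tap2, Psmb10 and, on log2(TPM + 1) without a filter (adjusted p = 0.0506), Nlrc5. The other 7 genes kept it throughout. With a library left out, 8 to 10 of the 10 genes were called higher, where 13.3% to 18.7% of all genes tested were. Of the 10, 9 were called higher in DESeq2 and on either TPM scale, 8 with effective-length offsets and 7 on log2(TPM + 1) without a filter. The median was 0.68 with library totals, 0.75 on log2(TPM + 1), with and without the filter, 0.75 on log2(TPM + 0.1) and 0.53 to 0.70 with a library left out, where the median of all genes moved to 0.07 with library totals and 0.12 and 0.13 on the filtered TPM scales. Genes called lower over the whole table, 1859 in edgeR, numbered 1172 with library totals, 469 on log2(TPM + 1), 459 on log2(TPM + 0.1), 380 without the TPM filter, 1226 with effective-length offsets and 1239 to 2077 with a library left out, the lowest without shCtrl_2. Genes called higher were 2218 in edgeR and 3111 with library totals, so rises made up 54.4% and 72.6% of calls, and 82.5% on log2(TPM + 1). With the replicate block 2021 genes were called higher and 1690 lower, and the 10 genes remained called; same-numbered libraries were not treated as pairs, since the labels name no shared source and their deviations correlated at only -0.051 to 0.024. Other genes of the lists gave 1678 values, of which 86 lost and 77 gained a call; 3 reversed, all Tmem127 (-0.19 in edgeR, 0.0406 on log2(TPM + 1), 0.0406 there without the filter and 0.0414 on log2(TPM + 0.1)); the cause was not tested. With 3 libraries a group, the calls of Tap2 and Psmb10, the smallest changes of the 10, turned on single libraries.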
